A study of Mus musculus with 8 samples.

Results

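The genes of MHC class II antigen presentation were measured in whole spleen of mice carrying the TTPΔARE allele and of wild-type mice. The group holds 10 genes, taken by symbol with no cut on a measured value: the classical chains H2-Aa, H2-Ab1 and H2-Eb1, the invariant chain Cd74, the peptide editor chains H2-DMa, H2-DMb1 and H2-DMb2, the DM inhibitor chains H2-Oa and H2-Ob, and the transactivator Ciita. They gave 13 transcript rows, because Cd74 had 2 and Ciita had 3, of 23517 rows of 17738 symbols. Total RNA was sequenced from the spleens of male mice, 4 of them wild-type and 4 TTPΔARE, all untreated C57BL/6 animals of 8 to 12 weeks, and each spleen was a sample of its own. The sources used here do not say whether the TTPΔARE animals carry 1 or both altered alleles, and replicates were numbered in accession order. TTP, the product of Zfp36, is a protein that docks on AU-rich stretches of 3′ UTRs and hastens the decay of the mRNA. Its own mRNA carries such a stretch, which the TTPΔARE allele lacks in the whole animal. Values are FPKM, fragments scaled to transcript length and to the depth of the library.

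Classical class II molecules are pairs of an alpha and a beta chain that show peptides from endosomes to CD4+ T cells. The invariant chain holds the peptide groove of a new molecule until it reaches the endosome, where DM exchanges the last piece of the invariant chain for other peptides. DO binds DM and restrains it, chiefly in B cells. Ciita is a coactivator without DNA binding of its own: it docks on factors of the RFX, CREB and NF-Y families that sit on the X and Y boxes just upstream of these genes. In the spleen, B cells and dendritic cells are main sources of these transcripts.

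The promoter letters below are shown because the members are known for this shared upstream module. RefSeq promoter windows of GRCm38.p6, from 250 bases before to 50 bases after a gene's start, were found for 7 of the 10 members. In 6 of them AAC, as in the X box core, was followed by ATTGG, the core of the Y box, with 25 to 28 bases between, and these letters are in capitals. In H2-Oa and H2-Eb1 another AAC nearby also made such a pair, and the AAC with G 2 bases before it is shown. The spacing was 25 bases in H2-Ob, 27 in H2-Eb1 and 28 in H2-Oa, H2-DMb2, H2-DMb1 and H2-Aa.
H2-Aa, chr17:34287863-34287910, minus strand: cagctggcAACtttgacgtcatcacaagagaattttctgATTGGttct
H2-Eb1, chr17:34305770-34305816, plus strand: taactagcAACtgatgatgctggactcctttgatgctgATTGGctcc
H2-DMb1, chr17:34153091-34153138, plus strand: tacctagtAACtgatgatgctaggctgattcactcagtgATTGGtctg
H2-DMb2, chr17:34145120-34145167, plus strand: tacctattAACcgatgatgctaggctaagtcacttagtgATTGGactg
H2-Oa, chr17:34092297-34092344, plus strand: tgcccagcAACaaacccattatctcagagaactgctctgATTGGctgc
H2-Ob, chr17:34238812-34238856, plus strand: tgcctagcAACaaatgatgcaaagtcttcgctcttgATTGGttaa
The pair of AAC and ATTGG with 20 to 40 bases between, searched on both strands, stood in 10.4% of 32544 distinct promoter windows, and this combination was chosen after the members' windows had been read. ATTGG alone stood in 37.4% of the windows. The longer Y box CTGATTGG, which overlaps it, stood in 4.07% of the windows and, among the members, in those of H2-Oa, H2-Aa and H2-Eb1. The windows of H2-DMa lacked the pair, which says only that these letters are not there.

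Because TTP acts on AU-rich 3′ UTRs, the TATTTAT heptamer was also sought on the sense strand of the members' 3′ UTRs (GENCODE, GRCm38). It was present in 2 of the 10 members, against 3364 of the 11223 tested symbols with a 3′ UTR. Members were searched in the 3′ UTRs of their own rows, but the tested symbols in the longest 3′ UTR of each. The 2 counts are therefore not on the same measure. H2-Ob held 1 heptamer in a 3′ UTR of 1785 bases, and H2-DMb1 held 1 in a 3′ UTR of 291 bases. The heptamer is in capitals in its surroundings.
H2-Ob, chr17:34245044-34245070, plus strand: taggattcttTATTTATagcatattgt
H2-DMb1, chr17:34160072-34160098, plus strand: tttgggggggTATTTATaatgaagtct
A match is a description of these letters and does not show that TTP binds there.

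Estimated depth was 28.3 to 32.2 M fragments per sample, and Zfp36, the altered gene, stood at 36.4 to 44.9 FPKM in wild-type and at 46.1 to 57.5 FPKM in TTPΔARE spleens (log2 difference 0.39, SE 0.08, adjusted p = 0.0323). Adjusted p-values here are from limma over all 16608 transcripts that averaged 0.5 FPKM or more, adjusted by Benjamini-Hochberg and read at a threshold of 0.05, and log2 differences are TTPΔARE minus wild-type on log2(FPKM + 0.5). Markers of spleen cells were detected, which is a loose check and does not by itself identify the tissue. Of the marker lists for B cells, plasma cells, conventional and plasmacytoid dendritic cells, red pulp macrophages, monocytes, T cells and erythroid cells, no gene found was at 0 in all samples. The summed level of 14 B cell markers was 1277 to 1371 FPKM in wild-type and 1121 to 1214 FPKM in TTPΔARE spleens, and that of 10 conventional dendritic cell markers was 60.8 to 68.2 and 71.7 to 80.3 FPKM, neither with overlap. In RNA of a whole organ, fewer cells of a type and less RNA per cell cannot be told apart.

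Most class II presentation genes differed little between genotypes, and the DO beta chain H2-Ob was the one member that passed the test. Of the 13 rows, all of which were tested, 1 fell, that of H2-Ob, and 0 rose, while 12 did not pass. Over all transcripts tested, 1.99% fell and 2.01% rose by the same rule. At an unadjusted p under 0.05 stood 5 rows, those of H2-Ob, H2-DMb2 and all 3 of Ciita, each lower in TTPΔARE, against 9.47% of all transcripts. Groups did not overlap in 3 rows, H2-Ob and 2 of Ciita, each lower in TTPΔARE, against 5.99% of all transcripts. The median log2 difference of the 13 rows was -0.06, with 9 negative and 4 positive. Over all transcripts tested the median was 0.00, and 48.95% were negative. Since rows of one gene share reads and the members share cells, these counts are not independent.

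**Figure D1:**
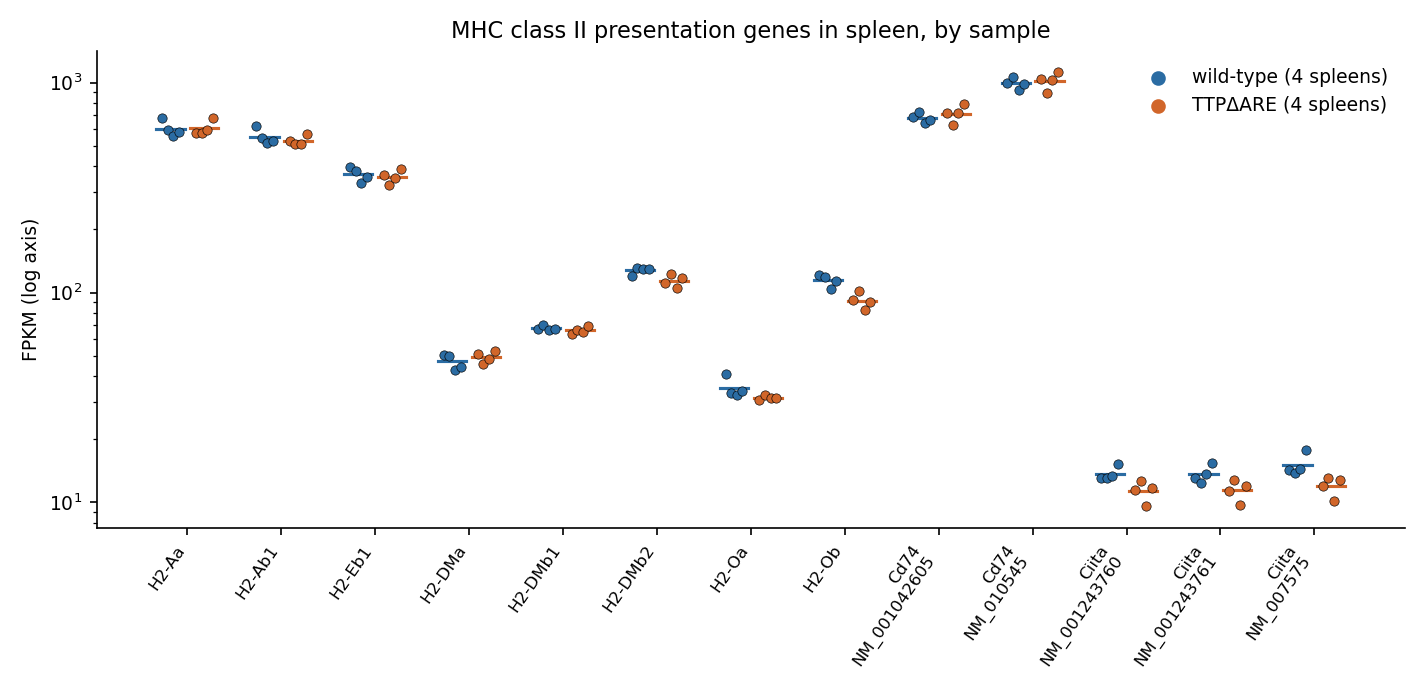
FPKM on a log axis of each transcript row in 4 wild-type (blue) and 4 TTPΔARE (orange) spleens, with replicates 1 to 4 from left to right and a bar at each group mean. Cd74 (NM_010545) is highest at 890 to 1118 FPKM and Ciita lowest, and in H2-Ob all 4 TTPΔARE spleens lie below all 4 wild-type spleens.

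Levels per length spanned a wide range, with Cd74 and the classical chains highest, the DM and DO chains below them and interleaved, and Ciita lowest. By the highest row of each gene, means over the 8 spleens were 1006 FPKM for Cd74, 605.5 for H2-Aa, 541.0 for H2-Ab1 and 360.8 for H2-Eb1, then 120.8 for H2-DMb2, 102.9 for H2-Ob, 66.8 for H2-DMb1, 48.2 for H2-DMa, 33.3 for H2-Oa and 13.5 for Ciita. Most neighbours in this order did not overlap over the 8 spleens. The exceptions were H2-Aa with H2-Ab1, although H2-Aa was higher within 8 of 8 spleens, and H2-DMb2 with H2-Ob, where H2-DMb2 was higher within 7 of 8. With only the highest row of each gene counted, the members together made up 1.32 to 1.48% of the summed FPKM of a sample.

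The classical chains were close to level. H2-Aa, the alpha chain of the A molecule, stood at 675.2, 594.3, 556.6 and 584.4 FPKM in wild-type replicates 1 to 4 and at 577.5, 577.1, 597.8 and 681.5 FPKM in TTPΔARE replicates 1 to 4. The groups overlapped, each with 1 high spleen, and the log2 difference was 0.01 (95% interval -0.18 to 0.21, SE 0.09, adjusted p = 0.951). H2-Ab1, its beta chain, stood at 619.1, 547.5, 512.8 and 529.5 FPKM in wild-type and at 527.2, 510.7, 511.8 and 569.6 FPKM in TTPΔARE spleens, a log2 difference of -0.06 (interval -0.23 to 0.12, adjusted p = 0.740). The same 2 spleens, wild-type replicate 1 and TTPΔARE replicate 4, were highest in both chains. H2-Eb1, the beta chain of the E molecule, stood at 394.2, 380.1, 332.1 and 355.4 FPKM in wild-type and at 361.3, 325.8, 351.8 and 385.9 FPKM in TTPΔARE spleens, a log2 difference of -0.04 (interval -0.21 to 0.14, adjusted p = 0.846). Each of these intervals excludes a change as large as 0.41, the median size among called transcripts. The direction of H2-Ab1 and H2-Eb1 turned to 0.04 and 0.05 under quantile normalization and to 0.01 and 0.03 with the erythroid marker mean as a covariate, and that of H2-Aa turned to -0.10 with the B cell marker mean as a covariate. The summed level of the 3 chains was 1520 ± 122.5 FPKM in wild-type and 1494 ± 97.97 FPKM in TTPΔARE spleens (SD, n = 4 each).

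The remaining class II chains were low. H2-Eb2, a further beta chain gene beside H2-Eb1, stood at 21.5 ± 3.03 FPKM in wild-type and 19.7 ± 1.41 FPKM in TTPΔARE spleens (SD, n = 4 each; log2 difference -0.12, adjusted p = 0.529 by limma). C57BL/6 mice are known to make no E alpha chain, and the H2-Ea-ps row reached at most 0.199 FPKM and was not tested.

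The invariant chain did not pass either. The shorter Cd74 transcript, NM_010545, stood at 1001, 1068, 923.8 and 981.4 FPKM in wild-type and at 1045, 890.2, 1024 and 1118 FPKM in TTPΔARE spleens (log2 difference 0.03, interval -0.17 to 0.23, adjusted p = 0.880). Its groups overlapped, and TTPΔARE held both the lowest and the highest spleen. The longer transcript, NM_001042605, which has 279 codons against 215, averaged 679.3 ± 35.8 FPKM in wild-type and 712.0 ± 66.5 FPKM in TTPΔARE spleens (SD, n = 4 each; log2 difference 0.06, adjusted p = 0.726 by limma). With the B cell marker mean as a covariate the signs turned, to -0.09 in the shorter row and -0.07 in the longer. The rows share most of their sequence, so how reads were divided between them is uncertain. The level of the longer row over the shorter was 0.674 to 0.698 in wild-type and 0.688 to 0.704 in TTPΔARE spleens. Cd74 is the one member on chromosome 18 (GRCm38.p6, 60803849 to 60812652, plus strand).

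The DM chains, which catalyse peptide exchange, did not pass. H2-DMa, the alpha chain, stood at 50.6, 49.9, 42.8 and 44.3 FPKM in wild-type and at 51.2, 45.6, 48.4 and 52.7 FPKM in TTPΔARE spleens, with overlap (log2 difference 0.08, SE 0.07, adjusted p = 0.596). H2-DMb1, a beta chain, varied little, at 67.3, 69.7, 66.1 and 67.1 FPKM in wild-type and at 63.1, 66.4, 65.1 and 69.3 FPKM in TTPΔARE spleens (log2 difference -0.03, and 0.00 under quantile normalization, adjusted p = 0.762). H2-DMb2, its near copy, stood at 120.0, 131.2, 129.3 and 129.7 FPKM in wild-type and at 111.5, 122.4, 105.4 and 116.7 FPKM in TTPΔARE spleens. Only TTPΔARE replicate 2 reached above the lowest wild-type spleen, replicate 1, and the log2 difference was -0.16 (SE 0.06, unadjusted p = 0.0268, adjusted p = 0.175 by limma). With the B cell marker mean as a covariate the sign turned in all 3 DM chains, to -0.04 in H2-DMa, 0.02 in H2-DMb1 and 0.05 in H2-DMb2. The coding sequences of H2-DMb1 and H2-DMb2 were identical at 754 of 786 bases. Of the 50-base words of H2-DMb1 27.2% occurred in H2-DMb2, and of those of H2-DMb2 26.8% occurred in H2-DMb1. How reads were assigned between the pair is therefore uncertain. With all other genes counted, 31.3% of the words of H2-DMb2 were shared. Summed over the pair, the level was 195.1 ± 5.73 FPKM in wild-type and 180.0 ± 8.83 FPKM in TTPΔARE spleens (SD, n = 4 each). The other members shared no 50-base word with another gene.

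H2-Ob, the beta chain of the DM inhibitor DO, was lower in TTPΔARE. It stood at 121.5, 118.2, 104.0 and 113.1 FPKM in wild-type replicates 1 to 4 and at 92.3, 102.1, 82.4 and 89.7 FPKM in TTPΔARE replicates 1 to 4. All 4 TTPΔARE spleens lay below all 4 wild-type spleens, with TTPΔARE replicate 2 just under wild-type replicate 3. The means were 114.2 ± 7.63 and 91.6 ± 8.14 FPKM (SD, n = 4 each), 1.25-fold higher in wild-type, and the log2 difference was -0.32 (interval -0.49 to -0.15, SE 0.08, adjusted p = 0.0446 by limma). The row rests on an estimated 6973 to 9910 fragments per sample, so counting error is small beside the spread between spleens. The call is near the threshold: it was lost with each of 6 of the 8 spleens left out in turn, all but wild-type replicate 3 and TTPΔARE replicate 2, at adjusted p from 0.0811 to 0.143, while the log2 difference stayed between -0.37 and -0.27.

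H2-Oa, the alpha chain that pairs with H2-Ob, had the same sign but did not pass. It stood at 41.0, 33.1, 32.4 and 34.1 FPKM in wild-type and at 30.6, 32.4, 31.4 and 31.6 FPKM in TTPΔARE spleens, which overlap narrowly (log2 difference -0.15, SE 0.07, adjusted p = 0.272). Wild-type replicate 1 was the high spleen, and without it the log2 difference was -0.07. The level of H2-Ob over H2-Oa was 3.26 ± 0.251 in wild-type and 2.91 ± 0.230 in TTPΔARE spleens (SD, n = 4 each), with overlap.

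**Figure D2:**
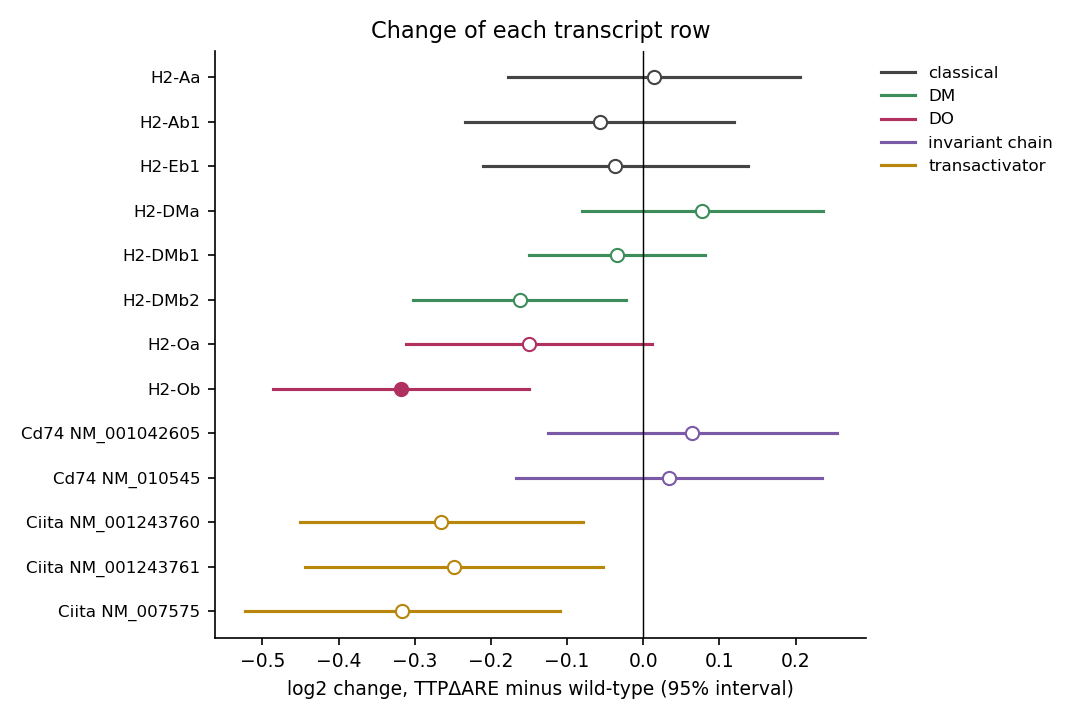
Log2 difference, TTPΔARE minus wild-type, of each transcript row on the x axis, with its 95% interval, coloured by role. The filled point marks the row past the adjusted threshold, H2-Ob at -0.32, and open points did not pass.

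B cell markers were lower in the same spleens as H2-Ob. Over all transcripts tested, 1.99% fell and 48.95% had a negative log2 difference. Of the 14 B cell markers, 13 had a negative log2 difference and 2 fell, Fcer2a, the low-affinity IgE receptor (-0.60, SE 0.08, adjusted p = 0.00461 by limma), and Cd22, an inhibitory B cell receptor (-0.57, adjusted p = 0.00574). The signalling chains of the B cell receptor, Cd79a and Cd79b, stood at -0.23 and -0.27 without passing (adjusted p = 0.0501 and 0.0664), and the list had a median of -0.19. The positive marker was the complement receptor Cr2, at 0.31 without passing (adjusted p = 0.121). The mean log2 level of the 14 markers was 5.97, 6.07, 5.98 and 6.09 in wild-type replicates 1 to 4 and 5.79, 5.91, 5.76 and 5.81 in TTPΔARE replicates 1 to 4. Within TTPΔARE, replicate 2 was highest and replicate 3 lowest on this measure and in H2-Ob. Within wild-type the order did not match: replicate 1 had the lowest marker mean and the highest H2-Ob, and replicate 4 had the highest marker mean with H2-Ob at 113.1 FPKM. The level of H2-Ob over Cd79a was 0.591 ± 0.0327 in wild-type and 0.558 ± 0.0535 in TTPΔARE spleens, and over Cd79b it was 0.507 ± 0.00307 and 0.492 ± 0.0563 (SD, n = 4 each), both with overlap. With the B cell marker mean as a covariate the log2 difference of H2-Ob was -0.10 (adjusted p = 0.878 by limma), in a fit that called 0 of all transcripts in either direction. The part of B cell content in the H2-Ob result was not tested beyond these values.

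**Figure D3:**
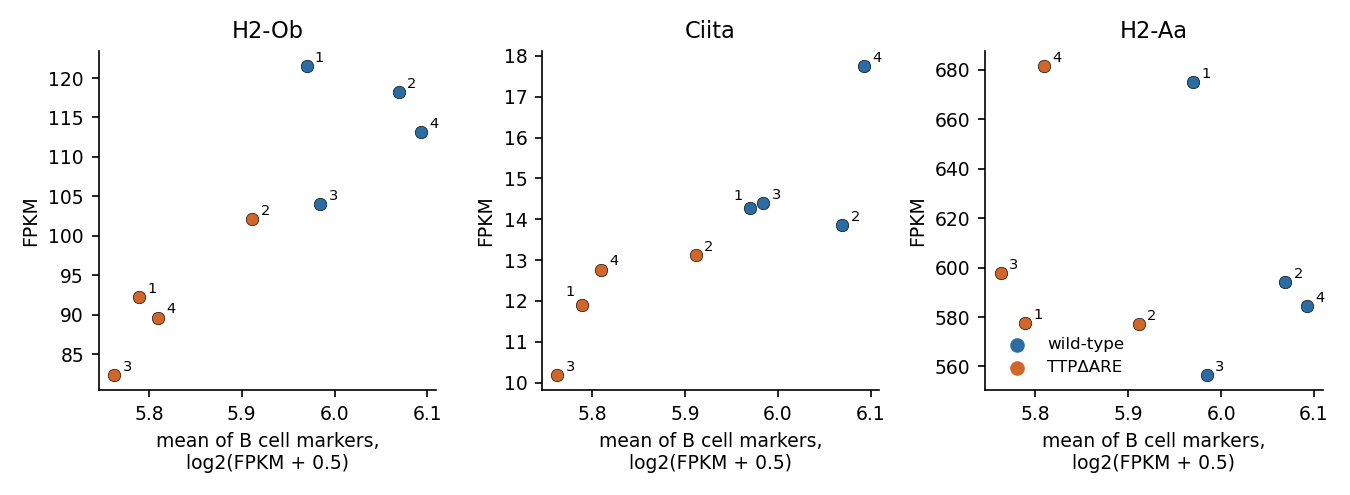
FPKM of H2-Ob, Ciita (NM_007575) and H2-Aa against the mean log2(FPKM + 0.5) of 14 B cell markers, with 1 point per spleen, its replicate number beside it, wild-type in blue and TTPΔARE in orange. TTPΔARE spleens lie at 5.76 to 5.91 and wild-type spleens at 5.97 to 6.09 on the x axis, and H2-Ob and Ciita separate by genotype while H2-Aa does not.

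Markers of other spleen cells differed in both directions. Their calls stand beside 2.01% of all transcripts tested that rose and 1.99% that fell. Of 10 conventional dendritic cell markers 4 rose and 0 fell: Esam, an adhesion molecule (log2 difference 0.41, adjusted p = 0.00957), the integrin chain Itgae (0.56, adjusted p = 0.0121), the chemokine receptor Xcr1 (0.53, adjusted p = 0.0307) and the growth factor receptor Flt3 (0.33, adjusted p = 0.0449, all by limma). The list had a median of 0.35, and Itgax, which encodes CD11c, stood at 0.00. Red pulp macrophage markers summed to 406.3 to 602.1 FPKM in wild-type and 547.8 to 602.1 FPKM in TTPΔARE spleens, and of 9 tested Emr1 rose by 0.36 (adjusted p = 0.0354), with Vcam1 highest in level at 0.31 (adjusted p = 0.244). Monocyte markers were mixed, with a median of -0.12 over 8. Ace, Lyz2 and Nr4a1 fell (-0.75, -0.49 and -0.38), while Ly6c2, Ccr2 and Fn1 were positive without passing (0.25, 0.26 and 0.13, adjusted p = 0.128, 0.275 and 0.670 by limma). The list summed to 733.1 to 929.3 FPKM in wild-type and 600.9 to 634.1 FPKM in TTPΔARE spleens, most of it Lyz2, at 578.5 to 778.1 and 443.9 to 483.6 FPKM. Txndc5 fell among 6 plasma cell markers (-0.61, adjusted p = 0.0287). That list had a median of -0.33, with 5 markers negative and 1 positive, Prdm1 at 0.26 without passing (adjusted p = 0.192 by limma). By limma 0 of 6 plasmacytoid dendritic cell markers passed, with a median of 0.08. Of these Siglech and Ccr9 had an unadjusted p under 0.05 (0.23 and 0.49), and Spib, highest in level, stood at -0.16. By limma 0 of 10 T cell markers passed, with a median of -0.09. Of these Cd3d, Cd4 and Cd5 were negative and Cd8a positive at an unadjusted p under 0.05 (-0.24, -0.20, -0.31 and 0.19), and Cd3g, highest in level, stood at -0.12. Of 18 erythroid markers Alas2, Bpgm and Tspan33 rose (1.15, 0.99 and 0.81), all 18 were positive with a median of 1.33, and the list summed to 117.8 to 278.9 FPKM in wild-type and 249.3 to 484.3 FPKM in TTPΔARE spleens. The part of these cells in the class II values was not tested.

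Ciita, the transactivator of the other members, had a negative difference in all 3 rows, none of which passed. The row NM_007575 stood at 14.3, 13.9, 14.4 and 17.8 FPKM in wild-type and at 11.9, 13.1, 10.2 and 12.8 FPKM in TTPΔARE spleens. The groups did not overlap, and the log2 difference was -0.32 (interval -0.52 to -0.11, SE 0.09, unadjusted p = 0.00632, adjusted p = 0.0874 by limma). NM_001243760 stood at 13.1, 13.0, 13.3 and 15.3 FPKM in wild-type and at 11.4, 12.6, 9.57 and 11.7 FPKM in TTPΔARE spleens, also without overlap (log2 difference -0.26, adjusted p = 0.107). NM_001243761 stood at 13.1, 12.4, 13.7 and 15.5 FPKM in wild-type and at 11.3, 12.8, 9.74 and 11.9 FPKM in TTPΔARE spleens, where replicate 2 overlapped (log2 difference -0.25, adjusted p = 0.140). Wild-type replicate 4 was highest and TTPΔARE replicate 3 lowest in every row.

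The 3 Ciita rows differ in their first exons, and alternative promoters of Ciita are known to serve different cell types. The rows also differ in the 3′ UTR, which has 2676 bases in NM_007575 and 684 in NM_001243760 and NM_001243761. All 3 rows have 19 exons on chromosome 16 (GRCm38.p6, gene at 10480014 to 10531064, plus strand). NM_001243760 starts first, NM_007575 starts 8220 bases downstream of it and NM_001243761 starts 9722 bases downstream. Of their 50-base words 91.3%, 64.1% and 97.9% also occur in another Ciita row, so these rows are not separate measurements of the promoters. With the B cell marker mean as a covariate the log2 differences were 0.07, 0.05 and 0.07 in the order NM_001243760, NM_007575 and NM_001243761, none passing by limma. In the other alternatives, scalings included, each row stayed negative.

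Ratios within a sample set each gene against a classical chain, so that the scaling of the sample drops out. None of the 6 ratios passed when the genotypes were permuted over all 70 assignments of the spleens (exact test, two-sided), where the smallest possible p is 0.0286. The level of H2-Ob relative to H2-Ab1 was 0.207 ± 0.00923 in wild-type and 0.173 ± 0.0193 in TTPΔARE spleens (SD, n = 4 each), a log2 difference of -0.26 (exact permutation p = 0.0571, adjusted over the 6 ratios p = 0.171). Its ranges of 0.196 to 0.216 and 0.157 to 0.200 overlapped through TTPΔARE replicate 2. H2-Oa relative to H2-Aa differed by -0.16 on the log2 scale (exact permutation p = 0.0571, adjusted p = 0.171) and Ciita relative to H2-Ab1 by -0.26 (exact permutation p = 0.114, adjusted p = 0.229). The ratios of H2-DMa to H2-Aa, H2-DMb1 to H2-Ab1 and Cd74 to H2-Ab1 differed by 0.06, 0.02 and 0.09 (exact permutation p = 0.314, 0.800 and 0.286).

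**Figure D4:**
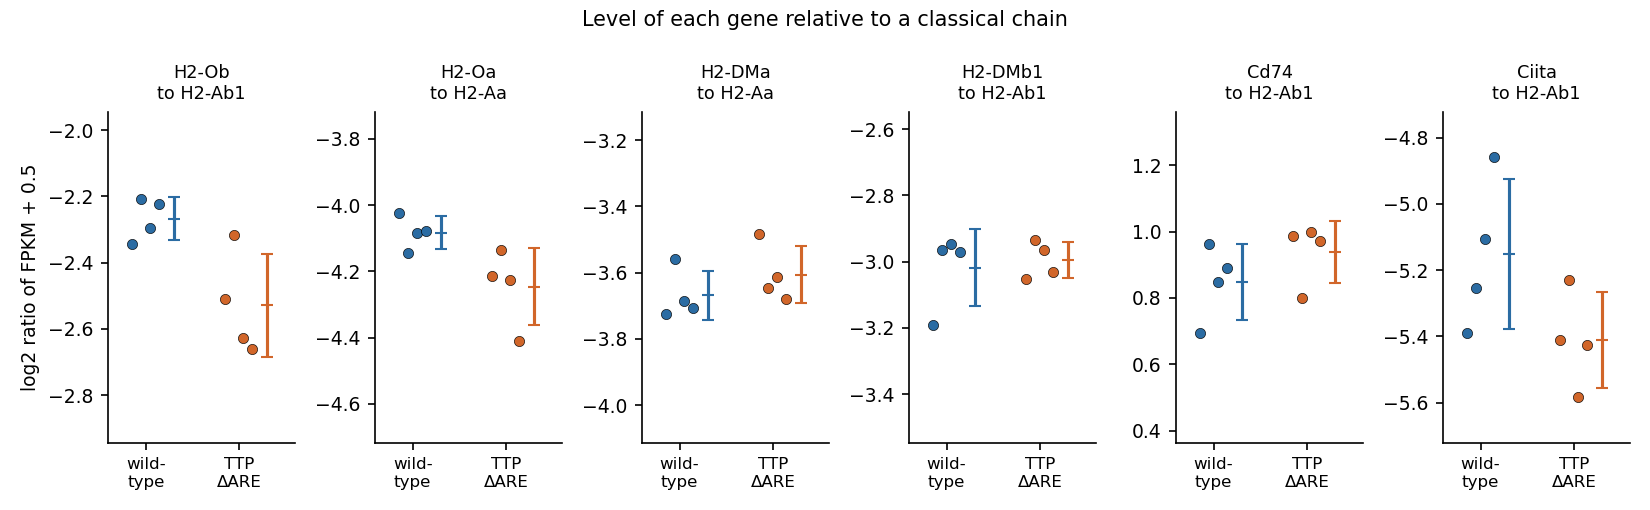
Log2 ratio of each gene to a classical chain, from FPKM + 0.5, in 4 wild-type (blue) and 4 TTPΔARE (orange) spleens, with the mean and SD beside the points and the same span on each y axis. The ratio of H2-Ob to H2-Ab1 averages -2.27 in wild-type and -2.53 in TTPΔARE spleens, and the ratio of H2-DMb1 to H2-Ab1 averages -3.018 and -2.995.

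The balance of DO to DM transcripts is given as a description, since H2-Ob enters it. H2-Ob over H2-DMa was 2.40, 2.37, 2.43 and 2.55 in wild-type and 1.80, 2.24, 1.70 and 1.70 in TTPΔARE spleens. H2-Ob over H2-DMb1 was 1.57 to 1.81 in wild-type and 1.27 to 1.54 in TTPΔARE spleens. Neither ratio overlapped between the genotypes, and TTPΔARE replicate 2 was again nearest to wild-type. The separation does not extend to H2-DMb2, the DM chain highest in level. In wild-type replicate 3, H2-Ob and H2-DMb2 stood at 104.0 and 129.3 FPKM. In TTPΔARE replicate 2 they stood at 102.1 and 122.4 FPKM, so H2-Ob over H2-DMb2 overlapped. The summed DO chains stood at 136.3 to 162.5 FPKM in wild-type and 113.8 to 134.4 FPKM in TTPΔARE spleens, and the summed DM chains at 237.9 to 250.9 and 218.9 to 238.7 FPKM.

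Some members varied together between spleens, and others did not. Over the 8 spleens, Pearson's r of log2(FPKM + 0.5) was 0.870 between H2-Aa and H2-Ab1, 0.868 between H2-Ab1 and H2-Eb1 and 0.812 between H2-Eb1 and Cd74. It was 0.784 between H2-Ob and Ciita and 0.803 between H2-Ob and H2-DMb2, but 0.044 between H2-Ob and H2-Aa. After removal of the genotype means these were 0.943, 0.867, 0.873, 0.408, 0.437 and 0.199. Other pairs were negative, such as H2-DMa with H2-DMb2 at -0.504 and H2-DMa with Ciita at -0.468 over the 8 spleens. Between the DM partners H2-DMa and H2-DMb1 it was 0.165. Each r is a description of 8 points that share library and depth, and the genotypes make up part of it.

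The transcripts most like H2-Ob, among 14650 that averaged 1 FPKM or more, were 4833420G17Rik (r = 0.979 over the 8 spleens, 0.932 within genotypes), Cisd3 (0.973 and 0.904), Traf3ip3 (0.972 and 0.919), Mina (0.969 and 0.935) and Glyr1 (0.967 and 0.898). Those most like H2-Aa were Med31 (0.961), Sgk3 (0.954), Phospho2 (0.953), Tmem11 (0.939) and 1110012L19Rik (0.939). The ones nearest to H2-DMa were Pfdn5 (0.976), Rpain (0.953), Mpc2 (0.945), Tspyl1 (0.942) and Med19 (0.940). The 3 sets hold different genes. Each is the top of 14650 correlations over 8 points, where values this high can arise by selection alone. The likeness was not tested.

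Along the class II region of chromosome 17, the difference was uneven from gene to gene. From H2-Oa to Btnl2, 277.1 kb in GRCm38.p6, lie 15 tested genes, the 8 members other than Cd74 and Ciita and 7 others. Of these 2 fell and 0 rose: H2-Ob, at 34238905 to 34245908 on the plus strand, and Btnl2, an inhibitor of T cells of the butyrophilin family. Btnl2 stood at 2.40, 2.35, 2.07 and 2.33 FPKM in wild-type and at 1.48, 1.92, 1.35 and 1.25 FPKM in TTPΔARE spleens, without overlap (log2 difference -0.49, SE 0.10, adjusted p = 0.0242 by limma). H2-Ab1 and H2-Aa, the nearest tested genes downstream of H2-Ob, starting 170.8 and 190.4 kb from the start of H2-Oa against 146.5 kb for H2-Ob, stood at -0.06 and 0.01. Tap2, upstream of it, encodes a peptide transporter of the class I route and stood at -0.16 (adjusted p = 0.217). In all 13 of the 15 genes had a negative value, and the 7 that are not members had a median of -0.13. Over all transcripts tested, 48.95% were negative, with a median of 0.00. The genes of the region share cells, so their signs are not independent.

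**Figure D5:**
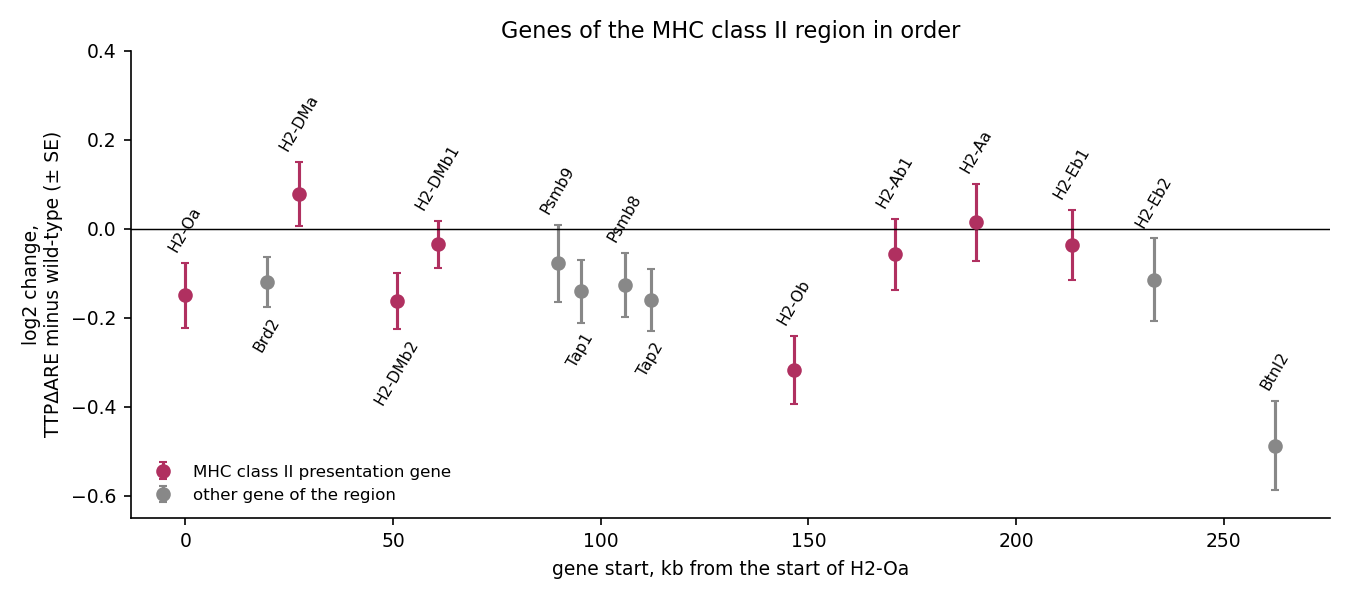
Log2 difference, TTPΔARE minus wild-type, with its SE, of 15 tested genes against the distance of their starts in kb from the start of H2-Oa, members in red and others in grey. H2-Ob at -0.32 and Btnl2 at -0.49 are the genes past the adjusted threshold.

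Genes that control or serve class II presentation were listed together with class I presentation genes and neighbours in the class II region. Of 51 listed symbols other than the members 49 were tested, 2 fell, 0 rose and 47 did not pass, with a median log2 difference of -0.04. Over all transcripts tested, 1.99% fell and 2.01% rose. Single genes that did not pass ran from values near 0 to 0.43, so they are not shown to be alike in both genotypes. The genes that fell were Ctsh, of the antigen processing list, and Btnl2, listed only as a neighbour in the region. With 1 spleen left out, 2 of the listed genes were lower when it was wild-type replicate 3, 1 when it was replicate 2 of either genotype, and 0 when it was any of the other 5. Among 9 genes of antigen processing Ctsh, a lysosomal cysteine protease, stood at 86.0, 71.9, 72.0 and 78.2 FPKM in wild-type and at 61.13, 64.97, 59.15 and 65.4 FPKM in TTPΔARE spleens, without overlap (log2 difference -0.29, SE 0.07, adjusted p = 0.0439 by limma). Cst3, the cathepsin inhibitor cystatin C and the most abundant of this list, stood at 172.1 ± 37.6 and 214.8 ± 27.9 FPKM without passing (SD, n = 4 each; log2 difference 0.34, adjusted p = 0.206 by limma), and the protease Ctsb stood at 0.00.

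Upstream of Ciita and on the promoter module of its targets 0 genes passed by limma. In the lists that follow, counts at an unadjusted p under 0.05 are in either direction and stand beside 21.1% of all transcripts tested. Of 7 genes of the factors that bind the X and Y boxes these were 3, Rfx5, Nfya and Nfyc. Rfx5, a subunit of the RFX complex, stood at 15.1 ± 0.531 and 13.5 ± 1.16 FPKM (SD, n = 4 each; log2 difference -0.15, adjusted p = 0.212 by limma), while the NF-Y subunits Nfya and Nfyc stood at 0.15 and -0.17 (adjusted p = 0.215 and 0.117). Of 9 genes on the route from interferon gamma to Ciita these were 2, the kinase Jak2 at 0.27 (11.2 ± 0.698 and 13.6 ± 1.52 FPKM, SD, n = 4 each; adjusted p = 0.0971 by limma) and the receptor chain Ifngr1 at 0.16 (adjusted p = 0.176). The kinase Jak1, highest in level, stood at 0.00. Of 6 other regulators of Ciita these were 2, Prdm1, a repressor of Ciita in plasma cells, at 0.26 and Irf4 at -0.18 (adjusted p = 0.192 and 0.218). Irf8, known from B and dendritic cells, stood at 0.10 (adjusted p = 0.402) and Pax5, a B cell factor that is also on the B cell list, at -0.23 (adjusted p = 0.255).

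Genes of class II traffic and of class I presentation were also without a call. Among 4 genes of traffic and turnover 1 had an unadjusted p under 0.05, March8, which encodes a ubiquitin ligase of the family that removes class II from the surface. It stood at 5.30 ± 1.43 FPKM in wild-type and 7.24 ± 1.24 FPKM in TTPΔARE spleens (SD, n = 4 each), with overlap (log2 difference 0.43, adjusted p = 0.147 by limma). Cd83, which protects surface class II, stood at -0.03 and Sppl2a, which cleaves the invariant chain remnant, at 0.04 (adjusted p = 0.896 and 0.764). Of 11 class I presentation genes 1, Tap2, had an unadjusted p under 0.05 and 9 were negative, with a median of -0.09. The class I light chain B2m stood at 1209 ± 168.1 FPKM in wild-type and 1178 ± 84.2 FPKM in TTPΔARE spleens and the heavy chain H2-K1 at 584.5 ± 56.0 and 544.4 ± 18.1 FPKM (SD, n = 4 each), levels in the range of the classical class II chains or above, with log2 differences of -0.03 and -0.10 (adjusted p = 0.907 and 0.541 by limma).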

How the data were processed

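The authors deposited FPKM for each RefSeq transcript in each sample. Per the submitters' processing notes, BWA was the aligner and mm10 the build. How reads were counted, with which annotation and strand setting, and what was done with reads of several matches is not given in the sources used here. Genotype labels set the groups and name no batch, litter or pairing. The members and lists were chosen with earlier results of these data known.

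Because FPKM are no counts, count models were not applied. Sequencing depth was inferred from the size of the steps among values up to 0.5 FPKM: 39.9 to 43.4% of them were whole fragments within 0.05 at the best depth, against 8.6 to 8.8% at a median depth. Most were not whole, so reads were not rebuilt, and fragments per row are estimates. The whole table was fitted with limma 3.58.1 (R 4.3.3; lmFit, then eBayes with the variance trend; two-sided) on log2(FPKM + 0.5), which understates changes of low transcripts, for rows averaging at least 0.5 FPKM, with Benjamini-Hochberg adjustment. The script was tested on simulated data. Intervals are limma's 95% intervals, not adjusted for multiple tests. Exact tests used scipy 1.17.1. Lists use 1 row per symbol, that of the highest mean. March1, March8 and Spi1 were matched by RefSeq accession, since the table spells them otherwise, and H2-Ea, Adgre1, Epb42 and Ahsp were not found under those symbols.

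Named genes are all members, from each pathway list those past the threshold and the 2 of highest mean, from each marker list those past the threshold (at most 3) and the 1 or 2 of highest mean, and the 5 transcripts most like each of H2-Ob, H2-Aa and H2-DMa. Some genes under this rule are left out. Tap2, Cr2, Ccr2, Fn1, Ly6c2, Siglech, Ccr9, Cd3d, Cd4, Cd5, Cd8a, Nfyc, Jak2, Prdm1, Irf4 and March8 fall outside it and were chosen after their values were seen. Alternatives were other pseudocounts, filters, scalings and variance settings, sample weights, marker covariates, 1 transcript per symbol, another threshold and leaving out each spleen.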

Additional observations from a re-analysis of the deposited data

Results flagged for a closer look

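Of 38 groups of 4 values, 4 had 1 spleen set apart from the others by Dixon's test, where chance gives about 1 in 20. Ciita NM_007575 was at 17.75 FPKM in wild-type replicate 4, against 13.86 to 14.39 FPKM in the other wild-type spleens. Ciita NM_001243760 was at 15.25 FPKM in the same spleen, against 13.02 to 13.33 FPKM, and the rows share most of their sequence. Without wild-type replicate 4 the difference stayed negative in all 3 Ciita rows. The log2 ratio of H2-DMb1 to H2-Ab1 was -3.192 in wild-type replicate 1, against -2.971 to -2.945 in the other wild-type spleens, and H2-Ab1 was highest in replicate 1, at 619.1 FPKM. The log2 ratio of Cd74 to H2-Ab1 was 0.8011 in TTPΔARE replicate 2, against 0.9719 to 0.9996 in the remaining TTPΔARE spleens, and Cd74 was lowest there at 890.2 FPKM.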

How the results depend on the processing

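The H2-Ob row kept its sign in all 20 alternatives and its call in 9. The call was lost with no filter (log2 -0.32, adjusted p = 0.0646), quantile normalization (-0.31, 0.0594), no variance trend (-0.32, 0.0568), the erythroid covariate (-0.15, 0.640) and the B cell covariate (-0.10, 0.878), where member rows lower numbered 0, and 2 at a threshold of 0.1. Leaving out 1 spleen gave 0 to 1 member rows lower, 0 to 2 pathway genes lower and 0 to 1 higher. Pathway genes lower numbered 1 with no filter, quantile normalization or no variance trend and 0 with either covariate, and 1 was higher at a threshold of 0.1. Over all transcripts 333 rose and 331 fell: with the erythroid covariate 0 and 2, with the B cell covariate 0 and 0, at a threshold of 0.1 726 and 636, with 1 spleen left out 93 to 437 and 104 to 332, and 215 fell with 1 transcript per symbol. Both covariates differ between the genotypes, and the cause of each loss was not tested. At a threshold of 0.1 Ciita NM_007575 was the row added; in the other alternatives no member row but H2-Ob gained or lost a call, and the 6 ratios kept their side of the threshold in all alternatives, although with 3 spleens against 4 the smallest exact p is 0.0571. No paired analysis was possible because the labels carry no replicate numbers, litters or batches.

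With 4 spleens a genotype, a change the size of that of H2-Ob lies at the limit of what the test calls, so a row that did not pass is not shown to be alike in both. FPKM rows of genes with several transcripts or near copies share reads. Depth does not limit the members, which rest on an estimated 1022 fragments or more in each spleen. Protein and cell numbers were not analysed here.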
